A study of Mus musculus with 18 samples.

Results

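The aryl hydrocarbon receptor pathway was described here through 5 genes, Ahr, Ahrr, Arnt, Tiparp and Cyp1b1, of the 19084 genes that the array's annotation named. All 5 were measured, by 6 probes, since Tiparp had 2. The genes were listed by name, chosen by earlier results of these arrays in which Ahrr was among the genes that most separated fresh basophils and mast cells. For each gene the probe was selected on the highest mean intensity over 18 arrays. The second Tiparp probe is given beside the first.

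Single-dye microarrays with 26423 probes covered 6 groups of 3 arrays, all from the mouse strain C57Bl/6. Fresh basophils came straight from the marrow of mice injected 3 days earlier with interleukin-3 bound to an antibody against it. Mast cells were grown from marrow cultured with 20 ng/ml interleukin-3 over 4 weeks, so that in this pair cell type and culture coincided. The other 4 groups were purified basophils kept for 5 days with 20 ng/ml interleukin-3. They were Cebpa f/f RosaYFP/creER cells with 100 nM 4-hydroxytamoxifen (treated floxed), the same genotype without it (untreated floxed), Cebpa +/+ RosaYFP/creER cells with the drug (treated wild type) and the same without it (untreated wild type). Both genotypes thus carried the drug-inducible Cre recombinase, and the labels name neither the promoter that drives it nor the ages of the mice. The labels leave unsaid whether replicates were separate mice or cultures, and p-values therefore reflect only the variation among these samples, possibly technical.

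The aryl hydrocarbon receptor (Ahr) is a ligand-activated transcription factor that waits in the cytosol with chaperones. Dioxins, plant compounds and tryptophan products bind it, after which it enters the nucleus, pairs with Arnt and binds a short core motif in target promoters. Its targets include its own brakes, the repressor Ahrr, which competes for Arnt, and the ADP-ribosyltransferase Tiparp, as well as the cytochrome P450 Cyp1b1, which oxidises ligands and oestrogens. Mast cells are known to carry the receptor, and C/EBPα, encoded by Cebpa, is a transcription factor of granulocyte development.

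Promoter sequences show where the letters of the receptor's core motif lie in front of the 3 target genes of the set. Each is the 250 bases before the gene's start in RefSeq (build GRCm38.p6), written 5′ to 3′ along the gene's strand, with the core GCGTG, or CACGC where it lies on the opposite strand, in capitals.
Ahrr: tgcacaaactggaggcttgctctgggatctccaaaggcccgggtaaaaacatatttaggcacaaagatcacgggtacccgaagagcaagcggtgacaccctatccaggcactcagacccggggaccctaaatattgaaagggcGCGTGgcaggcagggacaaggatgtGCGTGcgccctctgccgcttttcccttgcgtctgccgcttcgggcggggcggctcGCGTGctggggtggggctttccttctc
Tiparp: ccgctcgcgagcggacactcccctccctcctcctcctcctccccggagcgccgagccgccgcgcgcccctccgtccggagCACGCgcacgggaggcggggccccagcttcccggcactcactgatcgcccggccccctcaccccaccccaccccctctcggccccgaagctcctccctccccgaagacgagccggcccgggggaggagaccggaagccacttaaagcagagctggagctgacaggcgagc
Cyp1b1: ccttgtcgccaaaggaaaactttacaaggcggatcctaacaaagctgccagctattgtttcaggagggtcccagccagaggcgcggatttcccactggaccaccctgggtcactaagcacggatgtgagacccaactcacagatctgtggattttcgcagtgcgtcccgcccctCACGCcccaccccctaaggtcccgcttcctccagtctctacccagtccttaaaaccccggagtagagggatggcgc
The Ahrr stretch is chr13:74292332-74292581 on the minus strand, the Tiparp stretch chr3:65528197-65528446 on the plus strand and the Cyp1b1 stretch chr17:79715062-79715311 on the minus strand. In windows reaching 50 bases past the start, both strands were searched for GCGTG, for the longer form TNGCGTG, which contains it, and for the C/EBP motif TTGCNNAA. Ahrr held 3 copies of GCGTG, and 1 of these, 27 bases before the start, was part of the longer form. Tiparp and Cyp1b1 held 1 copy each, 170 and 76 bases before their starts. Arnt, the partner, also held 1 copy, 29 bases before its start. Among all 32851 promoter windows of the table, 32.4% held GCGTG, 5.07% TNGCGTG and 10.8% TTGCNNAA, and none of the 4 member windows held these letters of TTGCNNAA. A match is a description of letters, not a site of binding. Of the 5 members 4 were matched in the table; Ahr was not.

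**Figure D1:**
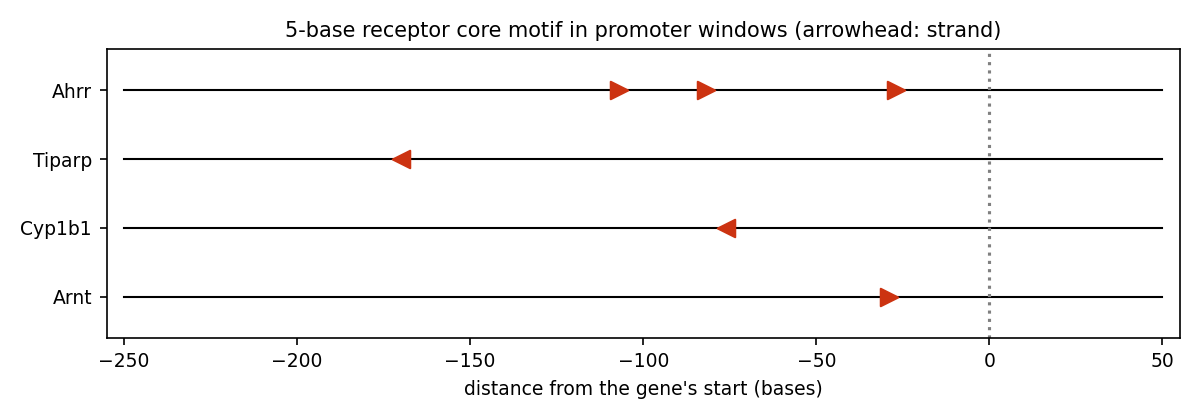
Positions of the core GCGTG in the promoter windows of Ahrr, Tiparp, Cyp1b1 and Arnt, by distance from the gene's start in bases (horizontal axis); arrowheads point along the strand that holds the motif. Ahrr has 3 copies and the other 3 genes 1 each.

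The median intensity per array lay between 24 and 42 before normalization, within-group correlations across probes between 0.9897 and 0.9933, and a group's precision is limited by its 3 arrays. Cebpa, the deleted gene, averaged 65.5 ± 6.60 in treated floxed cells, against 983 ± 63.5 in untreated floxed, 2778 ± 220.0 in treated wild type and 2369 ± 203 in untreated wild type cells (normalized intensity, SD, n = 3 each). Floxed cells without the drug thus already had less Cebpa signal than untreated wild type cells (log2 difference −1.25 ± 0.10 SE, limma adjusted p = 5.09e-06). The labels and files do not say if this probe covers the removed sequence. All 8 basophil markers were above background, an intensity of 30, in fresh basophils and in all 4 cultured groups. Their sum lay between 145500 and 151300 in treated floxed and 166600 and 170700 in untreated floxed cells. It was 164300 to 171000 in treated and 168600 to 178100 in untreated wild type cells. Mast cells had 6 of 7 measured mast cell markers and 7 of 8 basophil markers above background, with Il4 at background.

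Signals on the marker lists of other cell types differed between the groups. The summed mast cell markers lay between 113500 and 120000 in treated floxed and 74370 and 74940 in untreated floxed cells. They lay between 82560 and 83910 in treated and 76270 and 78820 in untreated wild type cells. In each of these groups 6 of 7 were above background, with Tpsab1 at background. The same sum was 63050 to 66090 in fresh basophils (5 of 7, with Mcpt2 and Tpsab1 at background). It was 154600 to 159500 in mast cells. Summed neutrophil markers lay between 1836 and 2050 in treated floxed cells (5 of 8 above background; S100a8, Ngp and Elane at background), against 5486 to 6182 (6 of 8) in untreated floxed, 11480 to 11890 (7 of 8) in treated wild type and 12210 to 13990 (7 of 8) in untreated wild type cells. Eosinophil markers, all 5 measured ones above background in the cultured groups, summed to 10770 to 11070 in treated floxed, 7404 to 8436 in untreated floxed, 3428 to 3697 in treated wild type and 4326 to 4459 in untreated wild type cells. Monocyte and macrophage markers (7 of 7) summed to 7294 to 7502 in treated floxed and 9528 to 10570 in treated wild type cells, and T, NK and innate lymphoid markers (3 of 5; Cd3d and Klrb1c at background) to 1018 to 1056 in treated floxed and 2935 to 3176 in treated wild type cells. Fresh basophils had 84190 to 87010 on the neutrophil list (7 of 8) and mast cells 550.4 to 596.4 (4 of 8). Immediate early genes summed to 86450 to 91830 in fresh basophils (9 of 10 above background), against 10310 to 12130 in mast cells (5 of 10; Fos, Fosb, Egr2, Dusp1 and Atf3 at background). In culture this list was higher with the drug in both genotypes, at 30010 to 30950 (10 of 10) in treated and 20170 to 24070 (9 of 10) in untreated floxed cells, and at 36540 to 36840 (10 of 10) in treated and 27850 to 30110 (10 of 10) in untreated wild type cells. The part of these signals in the results below was not tested. In bulk RNA, fewer cells of a type and less RNA per cell cannot be told apart.

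Treated floxed basophils had lost most of the Cebpa signal. In them the receptor and its repressor Ahrr, also a target, were higher than in treated wild type basophils. The other targets, Tiparp and Cyp1b1, were lower. Of the 5 members 2 were higher and 2 lower past the test, where 15.4% of all probes were higher and 14.6% lower (limma, adjusted p under 0.05). Between the untreated genotypes 1 member was higher and 2 were lower, where 8.04% of probes were higher and 6.82% lower. With against without the drug, floxed cells had 2 members higher and 1 lower (9.40% and 9.22% of all probes), and wild type cells 1 higher and 0 lower (10.7% and 9.71% of all probes). The drug effect differed between genotypes for 2 members, both more negative in floxed cells (5.47% of probes were higher and 5.81% lower in this test). These 5 comparisons share arrays. In floxed cells the drug and the loss of Cebpa signal came together, so their parts in a difference cannot be told apart. A drug effect here is only the difference with against without the drug.

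**Figure D2:**
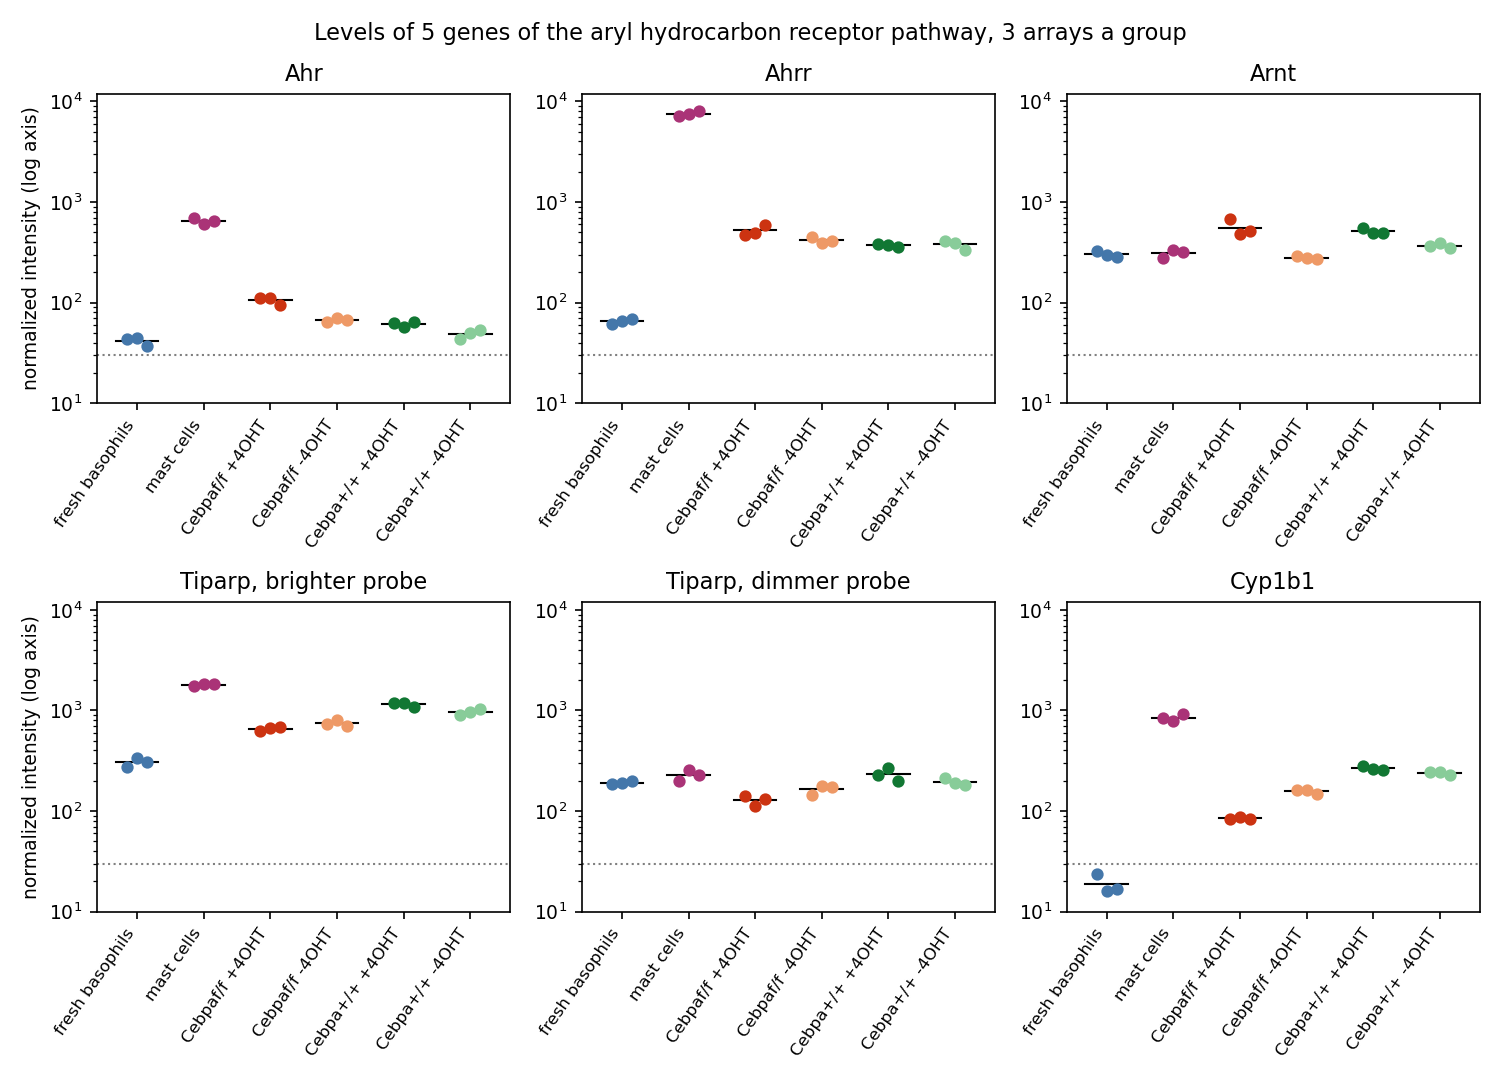
Normalized intensity of each member on every array (dots, log axis) with the mean of 3 arrays (bar), for fresh basophils, mast cells and the 4 groups of cultured basophils; the dotted line marks the background limit of 30. Mast cells are highest for Ahr, Ahrr, Cyp1b1 and the brighter Tiparp probe, and Cyp1b1 in fresh basophils lies below the line.

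Ahr, the receptor itself, had normalized intensities of 43.8, 44.0 and 37.2 in fresh basophils and 697, 601 and 654 in mast cells. In cultured basophils it had 111, 111 and 93.8 in treated floxed, 64.2, 70.3 and 66.3 in untreated floxed, 62.0, 56.9 and 63.5 in treated wild type and 42.9, 49.3 and 53.4 in untreated wild type cells. Mast cells stood far above every basophil group, and treated floxed cells above the other basophils. Arrays of the untreated floxed and treated wild type groups did not overlap, though their ranges almost touched, and fresh basophils overlapped untreated wild type cells. As deposited, Ahr had 60, 66 and 61 in untreated floxed and 59, 57 and 63 in treated wild type cells, which overlap.

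Between treated genotypes Ahr was 1.57-fold higher in floxed cells, a log2 fold change of 0.65 ± 0.093 (SE; 95% interval 0.45 to 0.86, adjusted p = 0.000175). Fold changes are on the log2(intensity + 16) scale, which understates those of dim genes, and intervals are not adjusted for the number of probes. Ahr kept this call under all 24 alternative settings of processing that re-estimated the change (0.48 to 0.78). A further alternative, a minimum of 2-fold, was met between treated genotypes by Cyp1b1 alone and by no member in the other comparisons. With the drug Ahr was higher in floxed cells by 0.54 ± 0.093 (adjusted p = 0.00130), again under all 24 settings. In wild type cells the drug difference was 0.25 ± 0.093 (95% interval 0.050 to 0.46, adjusted p = 0.0796), and the difference between the drug effects was 0.29 ± 0.13 (adjusted p = 0.204). Without the drug, Ahr was higher in floxed cells by 0.36 ± 0.093 (adjusted p = 0.0200), a call lost in 8 of 24 settings, including the removal of untreated wild type replicate 1 (adjusted p = 0.0882) or 2 (0.0505), or of untreated floxed replicate 2 (0.0715) or 3 (0.0555). It was also lost with no normalization between arrays (0.20, adjusted p = 0.212), scaling on bright probes (0.24, 0.116), median scaling (0.42, 0.0869) and only the groups compared (adjusted p = 0.0502).

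Arnt, the partner that Ahr needs to bind DNA and that other factors such as Hif1a also use, had another order of groups. It had 329, 297 and 286 in fresh basophils and 279, 332 and 317 in mast cells, and these groups overlapped. In cultured basophils it had 676, 480 and 516 in treated floxed, 289, 276 and 271 in untreated floxed, 548, 492 and 489 in treated wild type and 362, 392 and 346 in untreated wild type cells. Both treated groups were above both untreated groups, and the treated groups overlapped each other.

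With the drug Arnt rose 1.93-fold in floxed cells (log2 0.95 ± 0.12, 95% interval 0.69 to 1.20, adjusted p = 0.000115). The call held under all 24 settings (0.81 to 1.05). In wild type cells the rise was 1.37-fold (0.46 ± 0.12, adjusted p = 0.0161), lost without treated replicate 1 (adjusted p = 0.0632), without untreated replicate 3 (0.0628) and with no normalization between arrays (0.0907). The difference between these drug effects was 0.49 ± 0.17 (95% interval 0.13 to 0.85, adjusted p = 0.0849). Treated genotypes differed by 0.11 ± 0.12 (95% interval −0.15 to 0.37, adjusted p = 0.549), and without treated floxed replicate 1 the value was −0.031. The untreated genotypes differed by −0.38 ± 0.12 (adjusted p = 0.0517), which passed the test in 10 of 24 settings.

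Ahrr, the repressor that competes with the receptor for Arnt, showed the widest range of the set. It had 61.2, 66.2 and 67.9 in fresh basophils and 7119, 7460 and 8038 in mast cells. In cultured basophils it had 473, 496 and 594 in treated floxed, 444, 394 and 411 in untreated floxed, 386, 371 and 355 in treated wild type and 411, 394 and 334 in untreated wild type cells. Fresh basophils were below, and mast cells above, every array of cultured basophils, among which only treated floxed cells stood clear of the rest.

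Between treated genotypes Ahrr was 1.38-fold higher in floxed cells (log2 0.47 ± 0.11, 95% interval 0.23 to 0.70, adjusted p = 0.00530), a call lost under median scaling (adjusted p = 0.0642) and kept under the other 23 settings. The drug difference in floxed cells was 0.31 ± 0.11 (adjusted p = 0.0692), which passed the test in 5 of 24 settings, and in wild type cells it was −0.03 ± 0.11 (95% interval −0.27 to 0.21, adjusted p = 0.896). The drug effects differed by 0.34 ± 0.15 (adjusted p = 0.198), and the untreated genotypes by 0.13 ± 0.11 (adjusted p = 0.520), neither past the test.

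Tiparp, a target whose ADP-ribosyltransferase product dampens the receptor, had 271, 337 and 305 in fresh basophils and 1748, 1848 and 1837 in mast cells by its brighter probe. In cultured basophils it had 618, 668 and 682 in treated floxed, 731, 802 and 707 in untreated floxed, 1176, 1187 and 1088 in treated wild type and 906, 968 and 1026 in untreated wild type cells. No 2 groups overlapped, and mast cells were followed by treated wild type, untreated wild type, untreated floxed, treated floxed and fresh basophils. The wild type order rests on the scaling: as deposited, the values were 997, 1034 and 958 with the drug and 893, 981 and 1105 without it, which overlap. The dimmer probe differed on this point: fresh basophils had 186 to 199 and mast cells 197 to 257, and these overlapped.

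Tiparp was 1.74-fold lower in treated floxed than in treated wild type cells (log2 −0.80 ± 0.088, 95% interval −0.99 to −0.60, adjusted p = 2.13e-05), and the call held under all 24 settings. The dimmer probe had 141, 113 and 130 in treated floxed cells, against 226, 268 and 199 in treated wild type cells, with a log2 fold change of −0.77 ± 0.12 (adjusted p = 0.000405). Without the drug the brighter probe was lower in floxed cells (log2 −0.37 ± 0.088, adjusted p = 0.0139), lost without untreated wild type replicate 3 (adjusted p = 0.0647), without untreated floxed replicate 3 (0.0631) and under median scaling (0.710). The dimmer probe did not pass here (−0.23 ± 0.12, adjusted p = 0.285). The drug difference was −0.18 ± 0.088 in floxed cells (adjusted p = 0.194) and 0.25 ± 0.088 in wild type cells (adjusted p = 0.0676; 0.0094 with no normalization between arrays). These differed from each other by −0.43 ± 0.12 (adjusted p = 0.0440), a call lost in 15 of 23 settings, among them leaving out any array of the 12 but treated wild type replicate 3 (adjusted p up to 0.105). It was −0.20 with no normalization between arrays (adjusted p = 0.460) and −0.64 under median scaling (adjusted p = 0.127). The dimmer probe gave −0.55 ± 0.17 for this difference (adjusted p = 0.0659).

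Cyp1b1, the P450 enzyme often read as a sign of receptor activity, was at background in fresh basophils with 23.4, 16.1 and 16.9, and had 849, 784 and 920 in mast cells. In cultured basophils it had 82.8, 87.9 and 82.6 in treated floxed, 163, 163 and 147 in untreated floxed, 281, 263 and 256 in treated wild type and 242, 245 and 227 in untreated wild type cells. No 2 groups overlapped, and their order was that of the brighter Tiparp probe. The wild type groups are apart only after normalization: deposited values were 248, 246 and 240 with the drug and 238, 245 and 242 without it.

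Cyp1b1 was 2.81-fold lower in treated floxed than in treated wild type cells (log2 −1.49 ± 0.081, 95% interval −1.67 to −1.32, adjusted p = 4.35e-08), a call held under all 24 settings (−1.65 to −1.24). Floxed cells without the drug were already 1.46-fold lower than untreated wild type cells (−0.55 ± 0.081, adjusted p = 0.00055), a call lost under median scaling (adjusted p = 0.161) and kept in the other 23 settings. With the drug Cyp1b1 was 1.73-fold lower in floxed cells (−0.79 ± 0.081, adjusted p = 2.21e-05). The wild type difference was 0.15 ± 0.081 (95% interval −0.022 to 0.33, adjusted p = 0.224), and 0.017 with no normalization. The difference between the drug effects, −0.94 ± 0.11 (95% interval −1.19 to −0.70, adjusted p = 0.000216), passed the test in 23 of 23 settings.

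**Figure D3:**
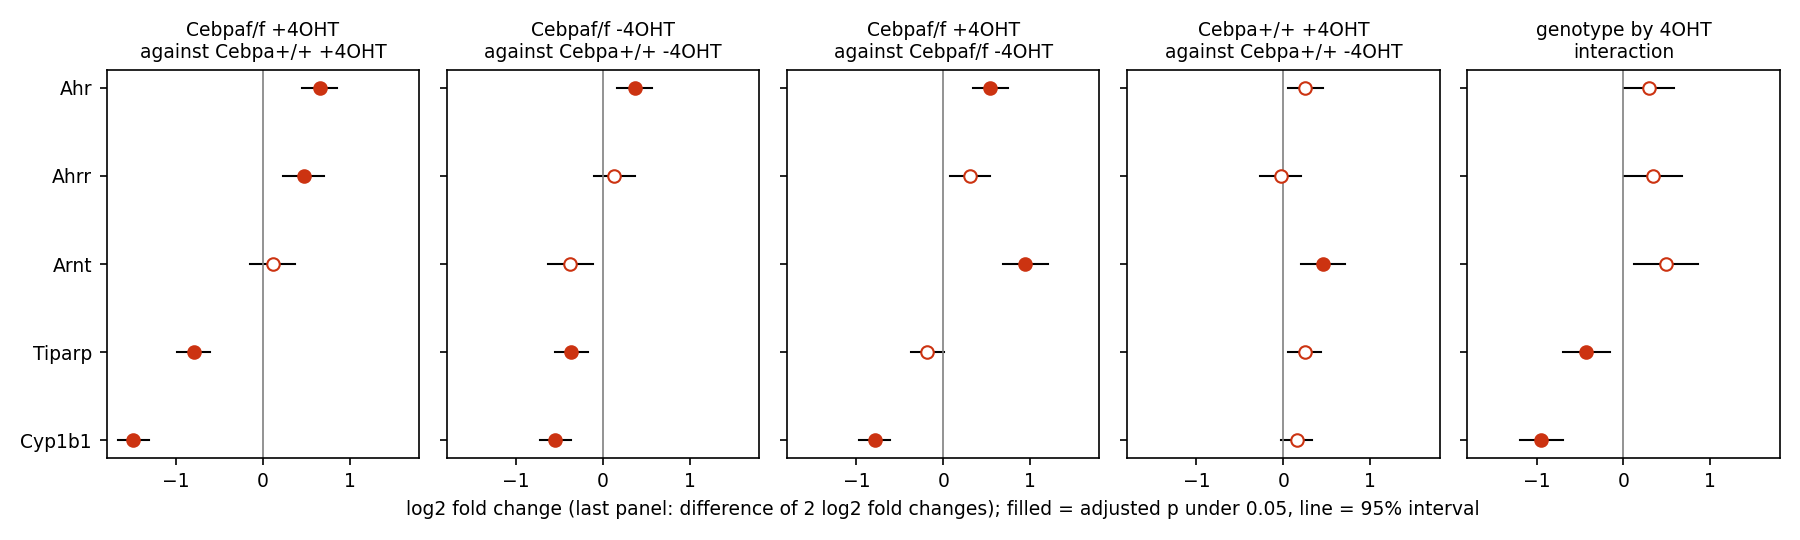
Log2 fold change of each member (dot) with its 95% interval (line) in the 5 tested comparisons; the last panel shows the difference of the drug effects, floxed minus wild type, and filled dots passed an adjusted p of 0.05. Ahr and Ahrr lie right of 0 and Tiparp and Cyp1b1 left of it between the treated genotypes, floxed over wild type.

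The distance between fresh basophils and mast cells had been seen when the genes were chosen, so it is given with no test. Between these groups 4 of 5 members did not overlap, all 4 lower in fresh basophils, where 48.7% of all probes did not overlap in either direction. Ahrr was 93.1-fold, Ahr 11.6-fold and Tiparp 5.72-fold lower in fresh basophils than in mast cells, and Cyp1b1 at least 28.4-fold lower, with background set at 30. The dimmer Tiparp probe was 1.17-fold lower in fresh basophils, with overlapping arrays. Arnt differed by −0.02 on the log2 scale. Of the members 4 were higher and 1 lower in mast cells than in untreated wild type basophils with no overlap (47.5% of all probes), by 19.1-fold for Ahrr, 10.3-fold for Ahr, 3.41-fold for Cyp1b1 and 1.86-fold for Tiparp, with Arnt 1.18-fold lower. By the dimmer Tiparp probe mast cells and untreated wild type basophils overlapped (1.15-fold). In this pair cell type coincided with culture, 4 weeks from marrow against 5 days of purified basophils. Fresh basophils and untreated wild type basophils differed also in 5 days of culture with interleukin-3. Between them 4 members were lower in fresh cells with no overlap (47.2% of all probes), while Ahr overlapped. Ahrr was 4.87-fold, Tiparp 3.07-fold and Arnt 1.20-fold lower, and Cyp1b1 at least 7.94-fold lower as the plain ratio. The dimmer Tiparp probe overlapped here too (1.02-fold). Arnt and this probe depend on the scaling. As deposited, Arnt had 448, 361 and 333 in fresh and 355, 395 and 370 in untreated wild type basophils, which overlap. The dimmer Tiparp probe as deposited had 246, 224 and 227 in fresh and 209, 193 and 193 in untreated wild type basophils, higher in fresh cells.

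A list of 48 other pathway genes, of which 42 were measured and 34 were above background in a cultured group, moved in both directions. Between treated floxed and treated wild type cells 10 rose (23.8%), 12 fell (28.6%) and 20 did not pass, beside 15.4% and 14.6% of all probes. The median log2 fold change was −0.127, or 0 with genes at background set to their bound, against −0.00409 over all probes. Among 16 measured targets 5 rose and 6 fell. Xdh, which breaks down purines, averaged 150.5 ± 7.32 in treated floxed and 1757 ± 43.5 in treated wild type cells (log2 −3.41 ± 0.087, adjusted p = 1.42e-10). Id2, an inhibitor of basic helix-loop-helix factors, averaged 29393 ± 366 in treated floxed and 10543 ± 996 in treated wild type cells (1.48 ± 0.12, adjusted p = 1.09e-06). Cyp1a1, the best known target, was at background in all 6 groups, so nothing can be read from it; it is named here after its values were seen.

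Calls between treated genotypes in the other roles of the list follow, where 15.4% of all probes were higher and 14.6% lower. Of 11 measured genes of tryptophan metabolism, not all of which form receptor ligands, 2 rose and 4 fell between treated genotypes. Tph1, the first enzyme of serotonin synthesis, averaged 8277 ± 576 in treated floxed and 2297 ± 193 in treated wild type cells (1.84 ± 0.090, adjusted p = 1.81e-08). Of the 2 measured chaperones 1 rose and of 6 Arnt-related factors 1 fell; of 5 coactivators 1 rose and 1 fell, and of 2 degradation genes 1 rose.

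**Figure D4:**
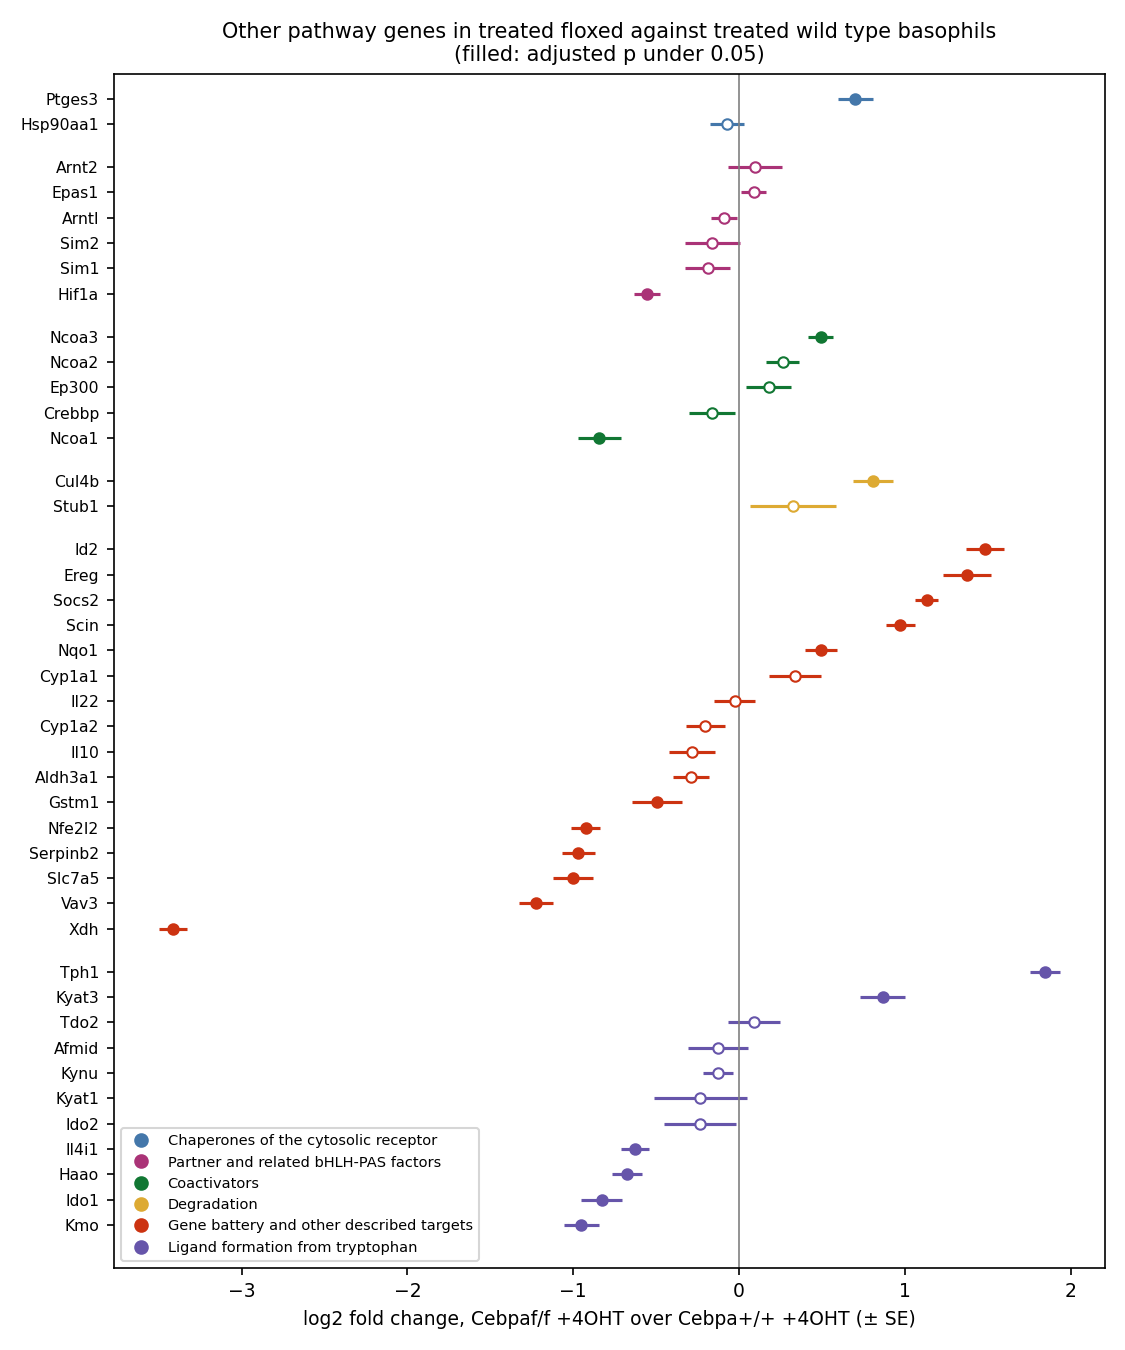
Log2 fold change with its SE for each of the 42 measured pathway genes in treated floxed over treated wild type basophils, coloured by role; filled dots passed an adjusted p of 0.05. Xdh lies farthest left and Tph1 farthest right.

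Without the drug 4 list genes rose and 8 fell in floxed against wild type cells (9.52% and 19%, beside 8.04% and 6.82% of all probes; median −0.0976, all probes 0.00233). Those that fell include Kynu, which was at background in every cultured group. Xdh fell by 1.26 ± 0.087 on the log2 scale (adjusted p = 1.21e-06) and averaged 504 ± 19.4 in untreated floxed and 1232 ± 109.6 in untreated wild type cells. Vav3, a signalling protein downstream of immune receptors, fell by 0.82 ± 0.10 (adjusted p = 0.000158). Ereg, a ligand of the EGF receptor, was at least 1.59-fold higher in untreated floxed cells (adjusted p = 0.000375), since untreated wild type cells were at background.

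With the drug 5 list genes rose and 9 fell in floxed cells (11.9% and 21.4%, beside 9.40% and 9.22% of all probes). The median was −0.078, against −0.00268 over all probes. Tph1 rose by 2.51 (adjusted p = 4.28e-09), Scin, which severs actin filaments, by 1.82 ± 0.086 (adjusted p = 3.50e-08) and Id2 by 1.66 (adjusted p = 9.59e-07). Scin averaged 12433 ± 639 in treated floxed and 3518 ± 192 in untreated floxed cells. In wild type cells the drug raised 11 and lowered 8 list genes (26.2% and 19%, beside 10.7% and 9.71% of all probes; median 0.0311, all probes 0.00611). Those raised include Nqo1, whose mean was under the background limit with and without the drug. The largest changes there were falls, of Epas1, an Arnt-binding hypoxia factor (196 ± 8.06 in treated and 432 ± 21.7 in untreated wild type cells, −1.08 ± 0.075, adjusted p = 4.20e-06), of Il4i1, an oxidase that forms receptor ligands from tryptophan (−0.76 ± 0.084, adjusted p = 8.11e-05), and of the coactivator Ep300 (−0.76 ± 0.13, adjusted p = 0.00174).

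The drug effect differed between genotypes for 13 list genes, 7 higher (16.7%) and 6 lower (14.3%) in floxed cells, beside 5.47% and 5.81% of all probes. Xdh led with −2.15 ± 0.12 (adjusted p = 5.76e-07), then Tph1 with 2.05 ± 0.13 (adjusted p = 1.05e-06) and Id2 with 1.63 ± 0.16 (adjusted p = 4.83e-05). Xdh averaged 1509 ± 85.2 in fresh basophils and 35.6 ± 9.92 in mast cells, in this pair the opposite order to Ahrr, Tiparp and Cyp1b1. Among the cultured groups Xdh had the order of Tiparp and Cyp1b1, highest in treated wild type and lowest in treated floxed cells. Scin averaged 2416 ± 199 in fresh basophils and 33696 ± 4538 in mast cells. Id2 averaged 4753 ± 234 in fresh basophils and 16607 ± 1182 in mast cells. In this pair Scin and Id2 had the same order as those members. Among the cultured groups both were highest in treated floxed cells, where Tiparp and Cyp1b1 were lowest.

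**Figure D5:**
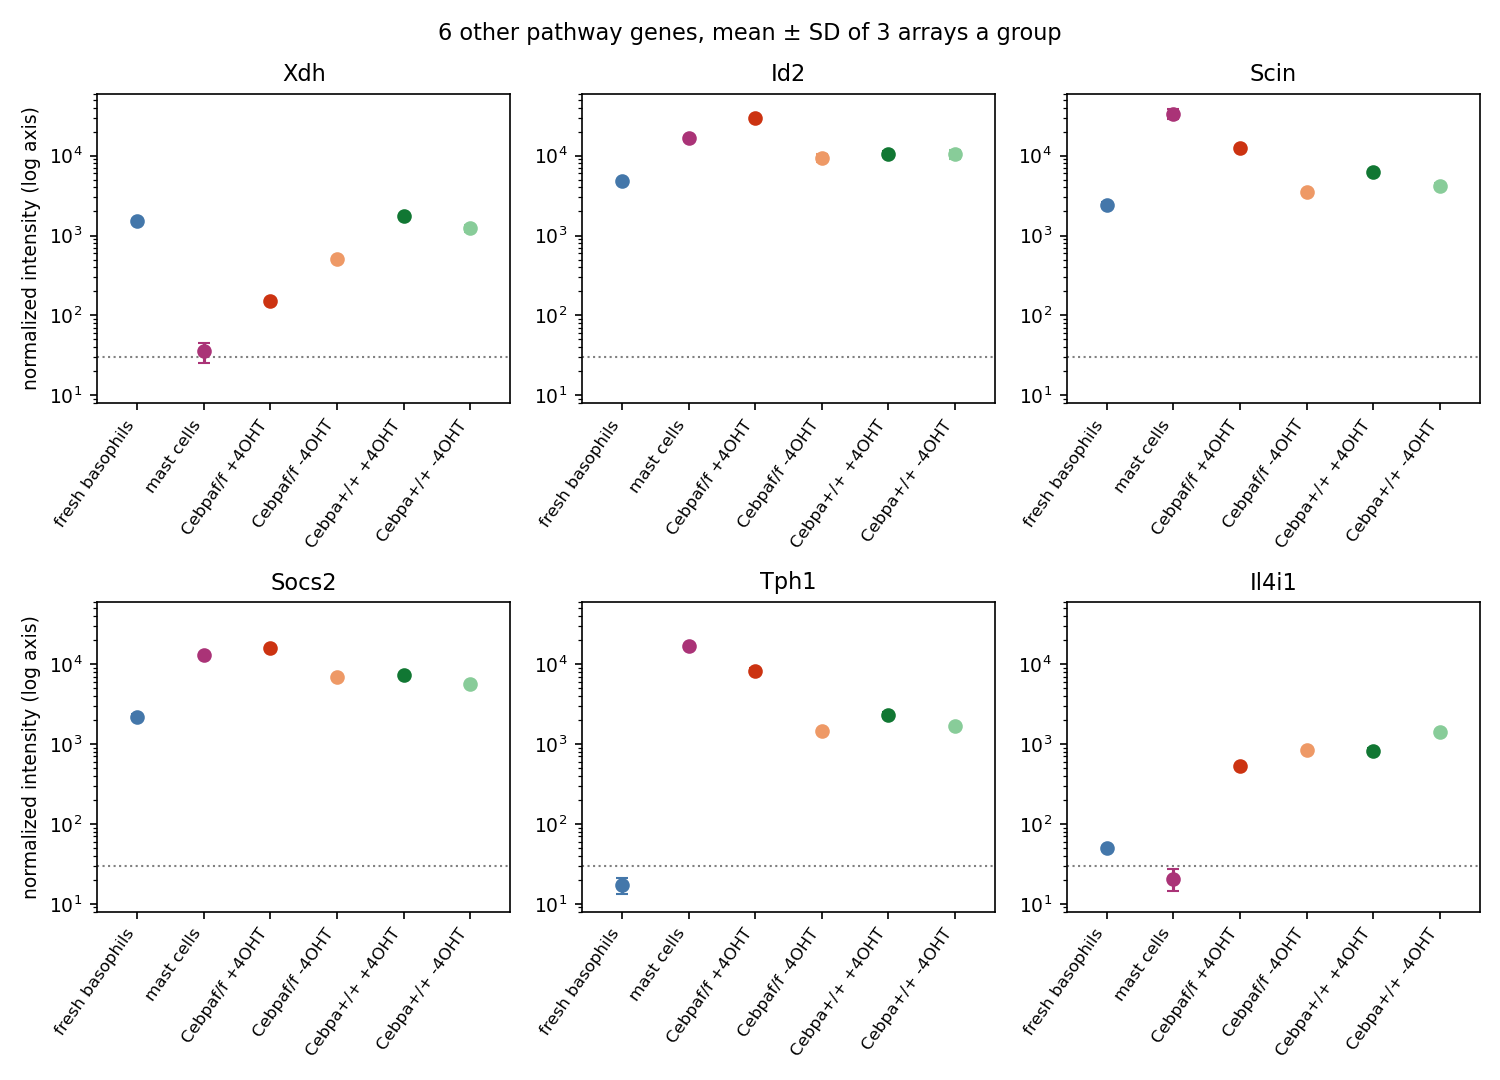
Mean normalized intensity (log axis) with SD of 3 arrays for Xdh, Id2, Scin, Socs2, Tph1 and Il4i1 in fresh basophils, mast cells and the 4 cultured groups; the dotted line marks the background limit of 30. Xdh is lowest in mast cells and next lowest in treated floxed cells, whereas Id2 and Socs2 are highest in treated floxed cells.

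Likeness was described by Pearson's r of log2 values over the 6 group means against 12208 other genes, with no p, and mast cells stood apart in most of these patterns. Smox (spermine oxidase) at 0.999, 1810062G17Rik at 0.996 and Pde5a at 0.996 were nearest to Ahr. Ahrr was nearest to Scmh1 at 0.998, Smad5 at 0.996 and Spint1 at 0.995. For Arnt the nearest were Polr2l at 0.982, Filip1l at 0.981 and Setd5 at 0.978. Tiparp was nearest to Ago3 at 0.997, Tex44 at 0.992 and Cyp1b1 at 0.991, and Cyp1b1 to Ago3 at 0.998, Clec3b at 0.997 and Efs at 0.997. Smox, Scmh1, Ago3 and the other genes here were picked for this likeness alone.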

How the data were processed

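Each of the 18 mouse RNA samples was read on 1 array with 1 dye. Values as deposited are a linear intensity per probe, some below 0; per the labels, Trizol and a column kit were used for extraction and a Cy5.5 dye for labelling. The scanner software, and whether values were normalized before deposit, were not found in the labels or files. The 26423 probes were named from the platform annotation, which can be old: 21876 had 1 symbol and 4547 none. The deposited intensities were quantile normalized over the 18 arrays, and log2(intensity + 16) was taken of the normalized values. The two-sided tests came from limma 3.58.1 under R 4.3.3, with lmFit and eBayes run on the 12 cultured arrays with a mean per group and Benjamini-Hochberg adjustment over all probes. A group whose arrays were all under an intensity of 30 was taken as at background; this limit was set with the values in view. Figures used matplotlib 3.10.9 in Python 3.11.15.

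The 5 members, the gene lists and the tests were chosen with earlier results of these data known. Genes beyond the members were named as the 3 largest changes past the test per contrast and the 3 highest correlations per member. No pairing by replicate number was seen: over 18 same-number pairs, deviations from group means correlated between −0.385 and 0.16. With 3 arrays a group this cannot show that the samples were unpaired, and the labels do not say. Alternatives were other scalings, offsets, a filter on dim probes, an intensity trend, a 2-fold threshold, the replicate number as a block and each array left out. Of 48 list genes 42 were analysed here. The scripts were tested on simulated data.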

Additional observations from a re-analysis of the deposited data

Results flagged for a closer look

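The drug effect differed between genotypes for 2 members and 13 list genes by the test of the difference itself (limma, 12 arrays), and 5 of these are given. The difference, floxed minus wild type, was −0.43 for Tiparp (adjusted p = 0.0440) and −0.94 for Cyp1b1 (adjusted p = 0.000216) on the log2 scale. The Tiparp call was lost in 15 of 23 settings, with −0.20 and an adjusted p of 0.460 when arrays were not normalized, and the dimmer probe did not pass (adjusted p = 0.0659). Among the other pathway genes it was −2.15 for Xdh, 2.05 for Tph1 and 1.63 for Id2. For Cyp1b1 the 3 arrays with the drug were below all 3 without it in floxed cells, and above them in wild type cells. In wild type cells this separation was absent in the deposited values, 248, 246 and 240 with the drug and 238, 245 and 242 without it, where the log2 change was 0.017 (adjusted p = 0.924). For Xdh the averages were 150.5 ± 7.32 in treated and 504 ± 19.4 in untreated floxed cells, and 1757 ± 43.5 in treated and 1232 ± 109.6 in untreated wild type cells.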

How the results depend on the processing

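The number of probes past the test under median scaling was 3146 for the drug in floxed cells, 3042 for the drug in wild type cells and 1484 for the interaction, against 4922, 5404 and 2981. A 2-fold minimum gave 1435 (treated genotypes), 479 (untreated genotypes), 669 (drug, floxed), 320 (drug, wild type) and 688 (interaction). Leaving out each array gave 6942 to 8189, 2900 to 3977, 3948 to 4832, 4063 to 5670 and 2303 to 2910 probes in the same order.

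Members past the test fell to 1 between treated genotypes, and to 0 in the other 4 comparisons, with the 2-fold minimum. Between untreated genotypes median scaling gave 0 members and leaving out an array 1 to 4. The drug in wild type cells gave 0 with no normalization between arrays, 2 with scaling on bright probes, an offset of 50 or an intensity trend, 3 without the dimmest 30% of probes, and 0 to 1 with an array left out. The interaction gave 1 under median scaling or an offset of 1, 4 with no normalization and 1 to 2 with an array left out. With the replicate number as a block it gave 1, Tiparp being lost (adjusted p = 0.0734). No pairing by number was seen, 2 of 12 arrays being closest to their own number.

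The share of calls that were higher moved under scaling. For treated genotypes it went from 51.2% to 45.7% (median), 62.0% (none) and 42.1% (bright probes). Untreated genotypes went from 54.1% to 73.0% (median), 33.6% (none) and 41.7% (bright probes). The drug in floxed cells went from 50.5% to 35.9% (median), 53.3% (none) and 46.5% (bright probes). The drug in wild type cells went from 52.5% to 67.9% (median), 22.5% (none) and 50.3% (bright probes). The interaction went from 48.5% to 27.8% (median), 79.0% (none) and 45.8% (bright probes). The median of all probes in the interaction moved to −0.126 under median scaling and 0.116 with none.

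Values near 0 changed sign. Ahrr with the drug in wild type cells was 0.090 under median scaling, and −0.12 to 0.028 when an array was left out, above 0 without treated replicate 3 or untreated replicate 1. Arnt between treated genotypes was −0.031 to 0.21 when an array was left out, below 0 without treated floxed replicate 1. Arnt in fresh basophils minus mast cells was 0.055 (median scaling), 0.51 (no normalization), 0.012 (bright probes), and −0.092 to 0.028 when an array was left out, above 0 without fresh replicate 3 or mast cell replicate 2. The other pathway genes named by their tests kept those calls in the 24 settings that re-estimated them (23 for the interaction). The 2-fold minimum was not run on them, and Il4i1, Ep300 and Vav3 changed by less than that. The cause of these shifts was not tested; 3 arrays a group limit precision, and Ahr in basophils lies near background.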

Other observations

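Il4i1, the secreted oxidase that turns tryptophan into receptor ligands, was brightest in cultured basophils. It averaged 49.4 ± 3.61 in fresh basophils and was at background in mast cells, and averaged 529 ± 19.7 in treated floxed, 850.4 ± 28.8 in untreated floxed, 826 ± 55.1 in treated wild type and 1414 ± 82.2 in untreated wild type cells. Slc7a5, a carrier of large amino acids such as tryptophan, was also brightest in untreated wild type basophils and dimmest in mast cells, with 353 ± 60.2 in fresh basophils, 135 ± 11.5 in mast cells, 545 ± 109.8 in treated floxed, 1050.2 ± 50.8 in untreated floxed, 1094 ± 43.2 in treated wild type and 1553 ± 117 in untreated wild type cells. Both were chosen for this section after their values were seen, and only their levels are given here (normalized intensity, SD, n = 3 each). As list genes, both were part of the tests above.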
